A study of Mus musculus with 2 samples.

Results

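Activity-regulated immediate early genes are the genes that a neuron transcribes within minutes of a stimulus, before any new protein has to be made. The 36 described here were taken by symbol from the gene tables: Fos, Fosb, Fosl2, Jun, Junb, Jund, Atf3 and Maff of the AP-1 family, Egr1, Egr2, Egr3 and Egr4, 10 other transcription regulators, 10 genes of signalling feedback and 4 effectors. All 36 symbols had 1 row each among the 43346 gene rows of both libraries. The RNA came from the cortex, called cortical plate in the labels, of adult C57BL/6J mice of 8 weeks. Each sample pooled littermates of both sexes. Polyadenylated RNA over 200 nt, depleted of ribosomal RNA, was read in stranded pairs, in biological replicates 1 and 2 of this single group. The samples analysed here include no second condition, no stimulus and no genetic change, and both samples carry the same donor label, so every comparison below is of one library with the other. What separates the replicates (litters, animals or dissection) is not given in the sources used here, and the p-values measure these libraries only.

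Calcium entry and growth factor signals reach these genes through the kinases that phosphorylate CREB at cAMP response elements and the ternary complex factors that sit with SRF at CArG boxes. The first proteins made are transcription factors, which then turn on slower genes, along with phosphatases and other inhibitors that shut the signal off. The messenger RNAs are short-lived, and in the cortex their level follows recent experience, which is why Fos and Arc are used to mark active neurons.

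Replicate 1 was sequenced to 91875460 expected counts and replicate 2 to 92939474, with 2.99% and 3.22% on spike-in RNAs. Levels are TPM, a count per transcript length scaled to a fixed total, and ratios are of replicate 2 to replicate 1 from counts scaled by TMM, with 95% Clopper-Pearson intervals that cover counting error only. A ratio was called different by an exact two-sided binomial test at an adjusted p of 0.05 over 19829 genes. Excitatory neuron markers were present in both libraries, with a median of 39.5 and 32.8 TPM over 10 genes. Among them Slc17a7, the vesicular glutamate transporter gene, had 572 and 479 TPM. Markers of striatal and hippocampal neurons were present as well and differed between the libraries, with the values given beside the library comparison.

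Most of the 36 are short genes with few exons, in GENCODE M21 on mm10. Their median span was 5.61 kb against 17.6 kb over 21762 protein-coding genes, and 14 of 36 spanned under 5 kb, or 38.9% against 18.6%. The longest coding transcript had a median of 4 exons against 7, while the coding length was alike, with medians of 1142 and 1182 nt. Jun, Junb, Jund, Ier2 and Ier5 had 1 exon each. The 3′ UTR carried the pentamer ATTTA, the core of AU-rich elements that hasten mRNA decay, in 30 of 36 members, or 83.3% against 61.5% of the 20765 protein-coding genes with a 3′ UTR. The median density was 1.86 per kb against 1.12. The longer ATTTATTTA was present in 5 members, or 13.9% against 5.47%. The 3′ UTR was also longer in the members, with medians of 1194 and 802 nt, and the part of its length in these shares was not tested. Plk3 had the highest density, with 4 copies in 332 nt, and Arc, Egr4, Ier2, Gadd45b, Gadd45g and Trib1 had no ATTTA.

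The windows of 24 bases below each hold an ATTTATTTA, in 4 of the members that have it, with the pentamers in capitals. They hold 3 of the 4 pentamers of the 3′ UTR in Plk3, 3 of 14 in Ptgs2, 2 of 4 in Dusp1 and 2 of 4 in Fos. The fifth is Crem, for which no sequence is shown. Each is the sense strand on mm10: Plk3 at chr4:117128712-117128735, Ptgs2 at chr1:150105787-150105810, Dusp1 at chr17:26506167-26506190 and Fos at chr12:85477096-85477119.
Plk3: tATTTAttaacagacATTTATTTA
Ptgs2: ctactgaccatATTTATTTATTTA
Dusp1: tgggagctggtccttATTTATTTA
Fos: tttattgtgttttcaATTTATTTA
The Ptgs2 window starts 5 nt past the stop codon and the Fos window 638 nt past it.

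**Figure D1:**
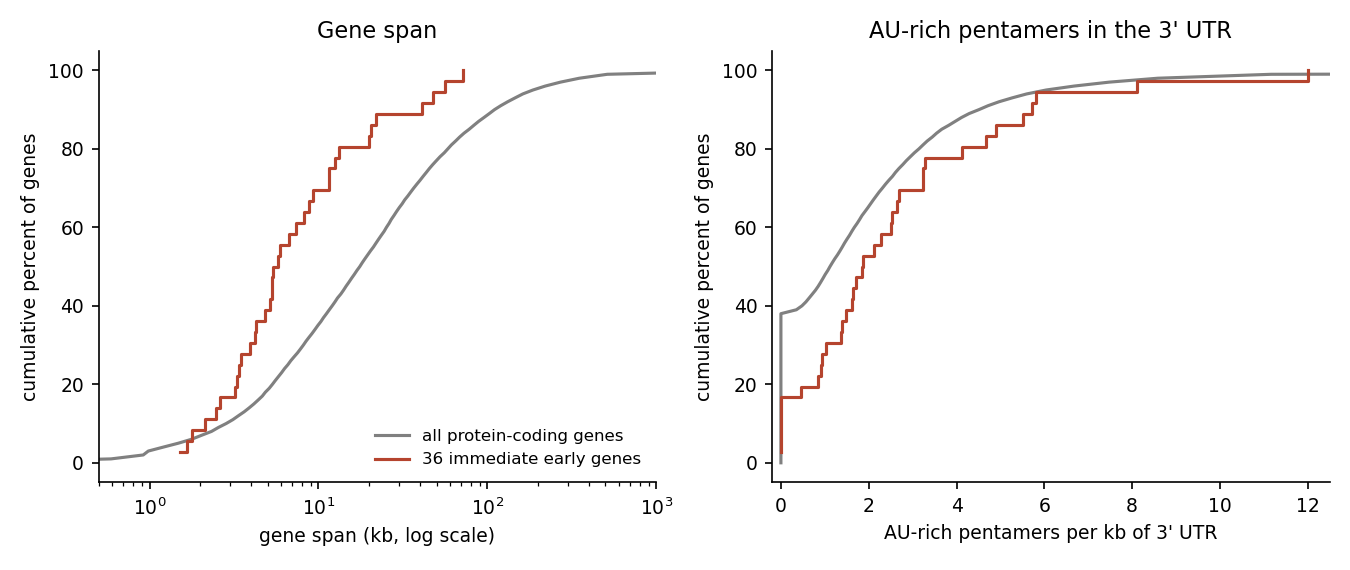
Cumulative percent of genes by gene span (left, kb, log scale) and by AU-rich pentamers (ATTTA) per kb of 3′ UTR (right), for the 36 immediate early genes (red steps) and all protein-coding genes (grey); the right axis ends just past the highest of the 36. The red steps lie left of the grey line in span, with medians of 5.61 and 17.6 kb, and right of it over most of the pentamer range, with medians of 1.86 and 1.12 per kb.

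Promoters of the members were compared with all RefSeq promoter windows on GRCm38.p6, each from 250 bases before to 50 bases after a start. A window was matched by symbol for 27 members. Egr1, Egr3, Arc, Ier2, Klf10, Nptx2, Crem, Sik1 and Trib1 were not matched. On either strand, the CRE core TGACG was in 19 of 27 members, or 70.4%, against 23.0% of 27025 genes and 35.3% of the 10105 protein-coding genes with at least 1 TPM in both libraries. The full CRE TGACGTCA, which contains the core on both strands, was in Dusp1, Btg2, Maff and Plk2, or 14.8% against 2.03% and 3.62%. The EGR site GCGNGGGCG was in 9 members, or 33.3% against 6.27% of all and 1310 of the 10105 expressed genes. CArG boxes were in Egr2 and Dusp5, or 7.41% against 1.81% and 1.62%, and TATAAA was in 5 members, or 18.5% against 15.7% and 8.60%. The AP-1 site TGANTCA was in none of the 27, against 8.97% and 5.83%. Sites more than 250 bases before a start were not searched, so a motif not found here may lie outside the window. The windows of members had a median GC content of 64.7%, against 61.3% in the expressed genes and 52.8% in all, and the part of base composition in these shares was not tested.

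The stretches below run from 6 bases before the first motif to the base before the start, 5′ to 3′ on the gene's strand. They are a selection from the members with a window, not all of them, and every stretch but that of Jun holds a motif. Capitals mark CRE cores (TGACG, or CGTCA on the other strand), full CREs, CArG boxes, EGR sites and TATAAA. Coordinates on GRCm38.p6 are chr12:85473755-85473889 (+) for Fos, chr7:19310046-19310111 (−) for Fosb, chr10:67537752-67537868 (+) for Egr2, chr6:85513590-85513772 (−) for Egr4, chr15:101266607-101266845 (+) for Nr4a1, chr19:4989972-4990156 (−) for Npas4, chr17:26508473-26508669 (−) for Dusp1, chr13:110394976-110395043 (+) for Plk2 and chr4:95052223-95052322 (−) for Jun.
Fos: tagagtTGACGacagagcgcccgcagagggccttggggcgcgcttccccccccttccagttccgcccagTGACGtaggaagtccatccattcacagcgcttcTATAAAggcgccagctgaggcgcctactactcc
Fosb: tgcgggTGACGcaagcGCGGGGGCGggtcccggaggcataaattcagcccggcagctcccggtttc
Egr2: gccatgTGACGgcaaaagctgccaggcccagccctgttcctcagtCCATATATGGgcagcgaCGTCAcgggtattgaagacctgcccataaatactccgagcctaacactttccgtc
Egr4: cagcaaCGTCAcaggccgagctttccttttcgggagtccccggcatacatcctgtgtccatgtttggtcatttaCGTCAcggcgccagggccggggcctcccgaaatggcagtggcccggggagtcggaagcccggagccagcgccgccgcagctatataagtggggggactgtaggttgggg
Nr4a1: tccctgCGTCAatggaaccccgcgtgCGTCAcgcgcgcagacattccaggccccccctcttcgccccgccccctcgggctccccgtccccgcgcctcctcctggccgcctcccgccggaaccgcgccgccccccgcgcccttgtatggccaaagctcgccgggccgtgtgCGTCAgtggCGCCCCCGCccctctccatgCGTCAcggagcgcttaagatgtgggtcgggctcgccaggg
Npas4: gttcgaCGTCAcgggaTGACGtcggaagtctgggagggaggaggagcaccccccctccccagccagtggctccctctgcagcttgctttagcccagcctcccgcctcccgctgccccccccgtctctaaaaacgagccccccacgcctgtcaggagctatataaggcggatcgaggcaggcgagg
Dusp1: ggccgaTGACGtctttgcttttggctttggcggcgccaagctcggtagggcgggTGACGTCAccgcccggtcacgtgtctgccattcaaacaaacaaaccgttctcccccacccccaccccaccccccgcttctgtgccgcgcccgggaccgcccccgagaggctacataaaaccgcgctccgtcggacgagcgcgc
Plk2: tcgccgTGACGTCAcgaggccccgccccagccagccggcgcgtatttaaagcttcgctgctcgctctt
Jun: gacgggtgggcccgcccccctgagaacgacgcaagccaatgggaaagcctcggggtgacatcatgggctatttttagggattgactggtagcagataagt
Nr4a1 had 4 CRE cores and an EGR site, and Npas4 had a pair of CRE cores starting 179 and 169 bases before the start. Egr2 had a CArG box between CRE cores that start 111 and 55 bases before this one of its annotated starts. The 100 bases shown for Jun, and the rest of its window, held none of the motifs searched.

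In this cortex 34 of the 36 genes reached at least 1 TPM in both libraries, 18 reached 10 TPM and 3 reached 50 TPM. The median member stood at 10.3 TPM in replicate 1 and 10.8 in replicate 2, against 4.03 and 3.65 over 21474 protein-coding genes. Above the protein-coding median lay 28 of the 36, and above its 90th percentile lay 3. Together they summed to 709 and 799 TPM. In the order of mean levels, 9 of the 35 neighbouring pairs were apart, the lower library of the one above the higher library of the other. The other 26 pairs overlapped, so most neighbouring ranks do not differ beyond the spread between libraries.

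Among the AP-1 factors, which pair a Fos protein with a Jun protein, Jund was the most abundant at 69.3 and 61.6 TPM (65.4 ± 5.42, SD, n = 2), the third of all members. Junb stood at 31.0 and 39.7 TPM and Jun at 22.7 and 16.1 TPM. Fos had 13.3 and 20.7 TPM, so the ratio of Fos to Jun in TPM was 0.585 in replicate 1 and 1.29 in replicate 2. The other Fos family members were lower, with Fosl2 at 5.79 and 6.09 TPM and Fosb at 2.18 and 2.97 TPM. Atf3, a stress-induced repressor, and Maff, a small MAF partner, were the lowest of all 36, at 0.39 and 0.36 TPM and at 0.43 and 0.35 TPM, from 44 to 50 counts in each library.

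The EGR zinc finger factors had Egr1 far above Egr2. Egr1, induced by nearly every form of cortical activity, had 68.5 and 87.1 TPM (77.8 ± 13.2, SD, n = 2) and was the second of all members. Egr3 had 41.9 and 43.3 TPM, Egr4 had 16.7 and 23.2 TPM, and Egr2 had only 1.88 and 4.94 TPM. Egr1 was 36.4-fold above Egr2 in TPM in replicate 1 and 17.6-fold in replicate 2.

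Of the other regulators, the orphan nuclear receptor gene Nr4a1 led with 33.9 and 42.2 TPM (38.0 ± 5.90, SD, n = 2), 5.91-fold and 7.11-fold above its relative Nr4a3 in TPM. Ier5 had 29.3 and 26.3 TPM, and Crem, which makes activators and repressors of CRE sites, had 18.0 and 15.8 TPM. Npas4, a factor specific to neurons that answers calcium entry and organises inhibitory synapses, had 9.26 and 10.2 TPM. Btg2, Klf10, Klf2, Ier2 and Nr4a3 lay between 5.27 and 9.80 TPM in either library. Klf4 had 2.35 and 2.08 TPM, a mean of 2.21 that overlaps with Inhba at 2.23 over the libraries. Klf2 and Klf4 are also genes of endothelium, and in bulk tissue fewer cells of a type and less RNA per cell cannot be told apart.

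The feedback genes were led by Plk2, a kinase that weakens synapses after prolonged activity, at 52.8 and 48.8 TPM (50.8 ± 2.81, SD, n = 2). The phosphatase genes Dusp6 and Dusp1, which switch off MAP kinases, had 31.8 and 32.6 TPM and 27.9 and 34.9 TPM. Gadd45g stood at 20.8 and 20.7 TPM, Rgs2, which speeds the shut-off of G proteins, at 18.9 and 19.4 TPM, and Gadd45b at 11.4 and 11.5 TPM. Plk3, Trib1 and Dusp5 lay between 5.71 and 9.65 TPM in either library, and Sik1, a kinase that restrains CREB coactivators, had 3.10 and 4.33 TPM.

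Arc, whose protein drives removal of AMPA receptors from synapses, was the most abundant of all 36 at 79.8 and 126 TPM (103 ± 32.9, SD, n = 2). Nptx2, a secreted pentraxin that clusters AMPA receptors, had 33.8 and 29.8 TPM. Ptgs2, the inducible cyclooxygenase, had 3.18 and 2.85 TPM and Inhba, which encodes a subunit of activin, had 2.33 and 2.12 TPM. The effectors fell into a pair above 29 TPM and a pair below 4 TPM in both libraries.

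**Figure D2:**
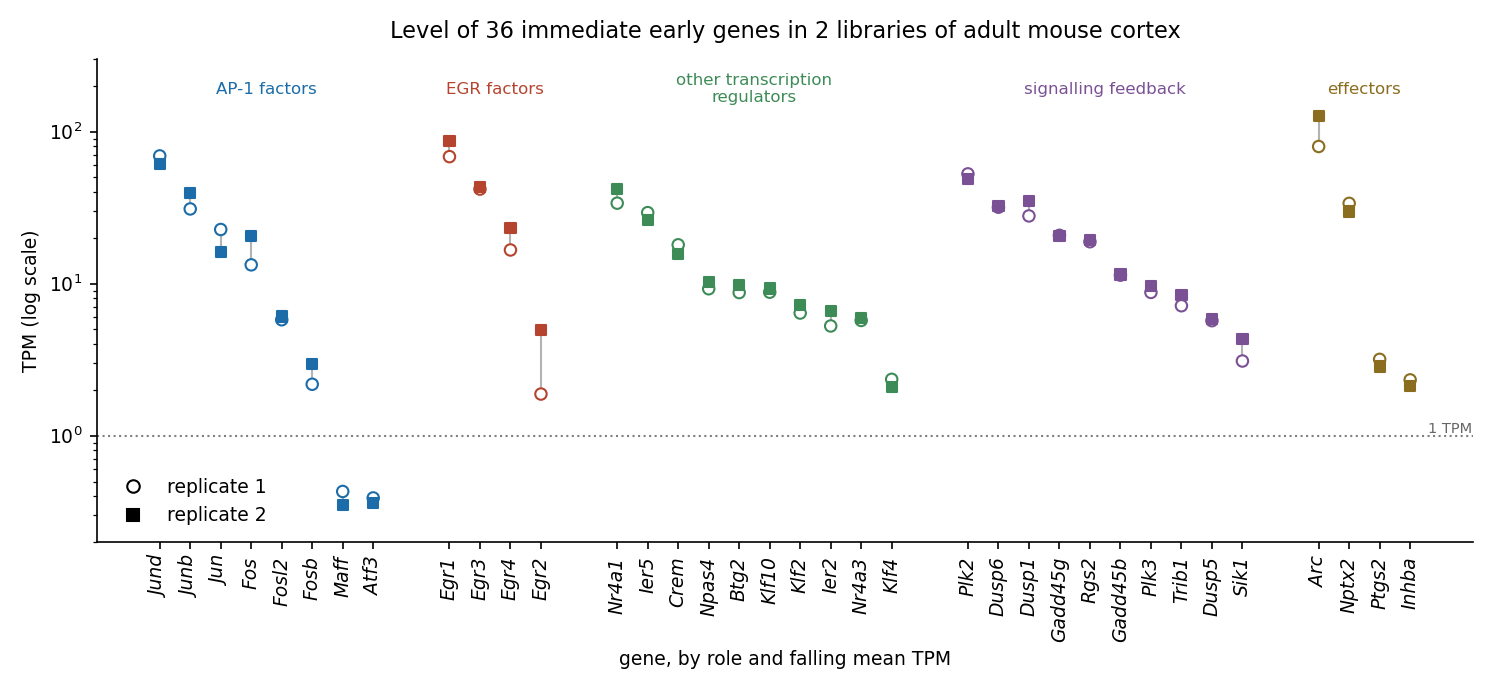
TPM (log scale) of each of the 36 genes in replicate 1 (open circles) and replicate 2 (filled squares), grouped by role, with a dotted line at 1 TPM. Arc, Egr1 and Jund lie above 50 TPM in both libraries, Maff and Atf3 lie below 1 TPM, and Egr2 has the widest gap between libraries, 1.88 against 4.94 TPM.

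Most members had more RNA in replicate 2. By the binomial test 24 were higher in replicate 2, 1 was lower and 11 did not pass, while over all genes tested 14.8% were higher and 14.0% lower. Among genes with at least 100 counts, which 34 of the members have, 17.0% were higher and 16.6% lower. The median log2 ratio was 0.238 against 0.003 over all genes, and the ratio was above 1 in 30 of 36. With spike-in totals as the scale, which lower the median of all genes to −0.15, 16 members were higher and 7 lower. The shares of all genes called higher and lower on that scale are not given here, so these counts have no background.

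Past 1.5-fold were 6 members, all higher in replicate 2, against 6.21% of all genes higher and 5.11% lower. With spike-in totals as the scale, and by TPM ratio, 3 members were past 1.5-fold. The shares of all genes past 1.5-fold in these settings are not given here. Egr2 differed most, with 333 and 863 counts, a ratio of 2.64 (2.33 to 3.01) and an exact binomial adjusted p of 8.34e-55. Fos, with 1392 and 2430 counts, had a ratio of 1.78 (1.67 to 1.90) and an exact binomial adjusted p of 2.81e-66. Arc had 15421 and 26730 counts and a ratio of 1.77 (1.73 to 1.80). These 3 were also the members that passed an exact negative binomial test in edgeR with a common biological coefficient of variation of 0.0905, estimated over both libraries, with adjusted p of 6.34e-09 for Egr2, 0.00185 for Fos and 0.00141 for Arc. By that test 0.908% of all genes were higher and 0.403% lower, and no member was lower. The coefficient was a single value for all genes, fitted with the libraries as replicates and then used to compare the same libraries. The edgeR p-values therefore cannot show a difference beyond variation between animals.

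The other members past 1.5-fold were Egr4, with a ratio of 1.56 (1.47 to 1.64), Sik1, with 1.56 (1.43 to 1.70), and Fosb, with 1.52 (1.36 to 1.70). With spike-in totals their log2 ratios were 0.48, 0.49 and 0.45, below 1.5-fold. Their edgeR adjusted p were 0.0566, 0.0714 and 0.143, so they did not pass that test. Just below followed Junb with 1.43 (1.36 to 1.49), Egr1 with 1.42 (1.39 to 1.45), Dusp1 with 1.41 (1.35 to 1.48), Ier2 with 1.39 (1.24 to 1.57), Nr4a1 with 1.39 (1.34 to 1.44) and Trib1 with 1.32 (1.24 to 1.41). These 12 lay above the 95th percentile of genes with at least 100 counts, a log2 ratio of 0.348.

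Jun was the one member lower in replicate 2 by the binomial test. It had 4594 and 3557 counts, a ratio of 0.790 (0.756 to 0.825), a log2 ratio of −0.34 and an exact binomial adjusted p of 1.43e-24, but an edgeR adjusted p of 0.930. Its log2 ratio stayed between −0.34 and −0.50 under the scalings tried. The AP-1 genes were divided: Fos, Fosb, Fosl2 and Junb were higher, Jun was lower, and Jund, with a ratio of 0.993 (0.968 to 1.02), Atf3, with 1.02 (0.666 to 1.56), and Maff, with 0.898 (0.585 to 1.37), did not pass.

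The counts by role stand beside 14.8% of all genes higher and 14.0% lower. By role, the EGR factors had 4 of 4 higher and a median log2 ratio of 0.572, with Egr3 the smallest at a ratio of 1.15 (1.10 to 1.20). Of the other regulators 8 of 10 were higher, with a median of 0.297, among them Npas4 with 1.23 (1.16 to 1.31), Btg2 with 1.25 (1.17 to 1.34) and Klf2 with 1.26 (1.14 to 1.39). Crem and Ier5 had ratios of 1.00 with intervals of 0.917 to 1.09 and 0.967 to 1.04. Of the feedback genes 7 of 10 were higher, with a median of 0.203. Plk3 had 1.24 (1.15 to 1.33), Rgs2 had 1.16 (1.11 to 1.22), Dusp6 had 1.14 (1.10 to 1.18) and Dusp5 had 1.14 (1.04 to 1.25), while Plk2, Gadd45b and Gadd45g did not pass. Plk2 had 9289 and 9397 counts and a ratio of 1.03 (1.00 to 1.06), and the ratios of Gadd45b and Gadd45g were 1.12 and 1.09.

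Of the 4 effectors Arc alone passed. Nptx2 had 5368 and 5186 counts and a ratio of 0.985 (0.948 to 1.02), Ptgs2 had 0.963 (0.877 to 1.06) and Inhba had 1.01 (0.831 to 1.23). The remaining members that passed were Klf10, with 1.18 (1.11 to 1.26), Fosl2, with 1.18 (1.11 to 1.25), Nr4a3, with 1.13 (1.07 to 1.20), and Klf4, with 1.23 (1.06 to 1.42). Klf4 was higher in replicate 2 by counts but lower by TPM, 2.35 and 2.08. The share of its 3029-nt transcript was 74.9% in replicate 1 and 96.1% in replicate 2, and that of a 522-nt transcript was 23.8% and 2.30%. The 522-nt transcript had only 12.15 and 1.12 expected counts, so these shares rest on few reads. By posterior mean its share was 25.8% and 12.1%. Under the scalings tried, Ier5, Gadd45g, Atf3, Plk2 and Inhba, none of which passed, also changed sign in at least 1.

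**Figure D3:**
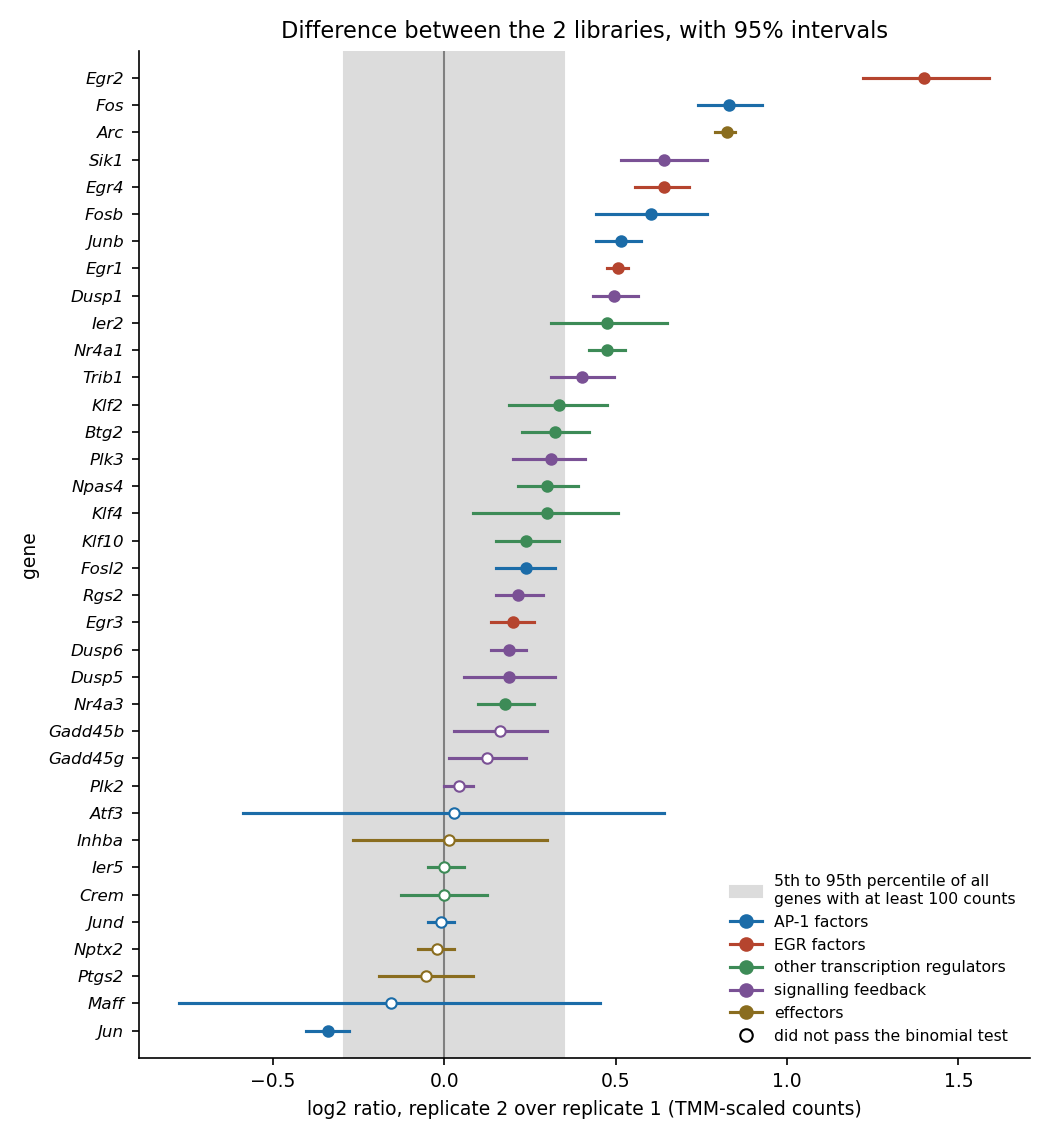
Log2 ratio of replicate 2 to replicate 1 for each of the 36 genes, with 95% Clopper-Pearson intervals, coloured by role; open symbols did not pass the binomial test, and the grey band is the 5th to 95th percentile of genes with at least 100 counts, −0.293 to 0.348. Egr2, Fos and Arc lie farthest right, and Jun is the one filled symbol left of 0.

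Genes outside the 36 that belong to the same response were compared in the same libraries, in lists chosen with earlier results of these data known. As background for these lists, 14.8% of all genes tested were higher and 14.0% lower by the binomial test. Among genes with at least 100 counts the shares were 17.0% and 16.6%. Of 22 other rapid activity-induced genes, 21 could be tested, and 13 were higher and 0 lower in replicate 2, with a median log2 ratio of 0.122. Nr4a2, the third gene of the Nr4a family, had 5.99 and 10.6 TPM and a ratio of 2.04 (1.90 to 2.19), and Ccn1, a secreted matrix protein, had 5.18 and 8.13 TPM and a ratio of 1.75 (1.59 to 1.93). The most abundant of the list, Dusp14, Arf4 and Homer1, stood at 59.9 ± 1.87, 48.5 ± 1.88 and 37.7 ± 1.12 TPM (SD, n = 2), with ratios of 1.08, 1.08 and 1.19.

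The slower wave, whose genes carry the effects of the first, did not lean the same way. Of 18 late activity-response genes, 4 were higher and 7 lower, with a median of −0.06. Its most abundant genes were Nrn1, Rasgrp1 and Vgf, with ratios of 0.879 (0.858 to 0.900), 0.958 (0.944 to 0.972) and 1.05 (1.03 to 1.08), and Bdnf, the neurotrophin, had 6.07 and 5.06 TPM and a ratio of 0.932 (0.867 to 1.00) that did not pass. The largest ratios were those of scarce genes, 2.77 (2.04 to 3.79) for Tacr1 at 0.18 and 0.45 TPM and 0.306 (0.191 to 0.475) for Stac at 0.54 and 0.16 TPM. Of 38 upstream kinases, phosphatases and transcription factors, 9 were higher and 9 lower, with a median of 0.001. Camk2a, Ppp3ca and Camk2b were the most abundant of them, with ratios of 0.948, 0.989 and 0.925, and the largest were those of Camk4 and Mapk3, both 1.17.

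Markers of other cells and regions differed between the same libraries. All 12 striatal markers were higher in replicate 2, with a median log2 ratio of 2.053 and a summed level of 151 and 457 TPM, among them Drd2 at 0.80 and 12.5 TPM, and none was at 0. Of 7 hippocampal markers 6 were lower and 1 higher, with a median of −1.192 and sums of 85.1 and 63.9 TPM. All 10 oligodendrocyte markers were higher (median 0.417, sums of 3758 and 4578 TPM), as were 7 of 8 of choroid plexus and ependyma (median 0.93, 21.1 and 29.4 TPM), 5 of 8 of meningeal fibroblasts (median 0.213) and 5 of 5 of red blood cells (median 0.466). Excitatory neuron markers had 0 higher and 6 lower of 10 (median −0.063, 3139 and 2697 TPM), and inhibitory neuron markers had 5 higher and 0 lower of 9 (median 0.076). Astrocyte, microglial, endothelial and mural lists had medians between −0.044 and 0.037. The part of these cells and regions in the ratios of the immediate early genes was not tested.

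**Figure D4:**
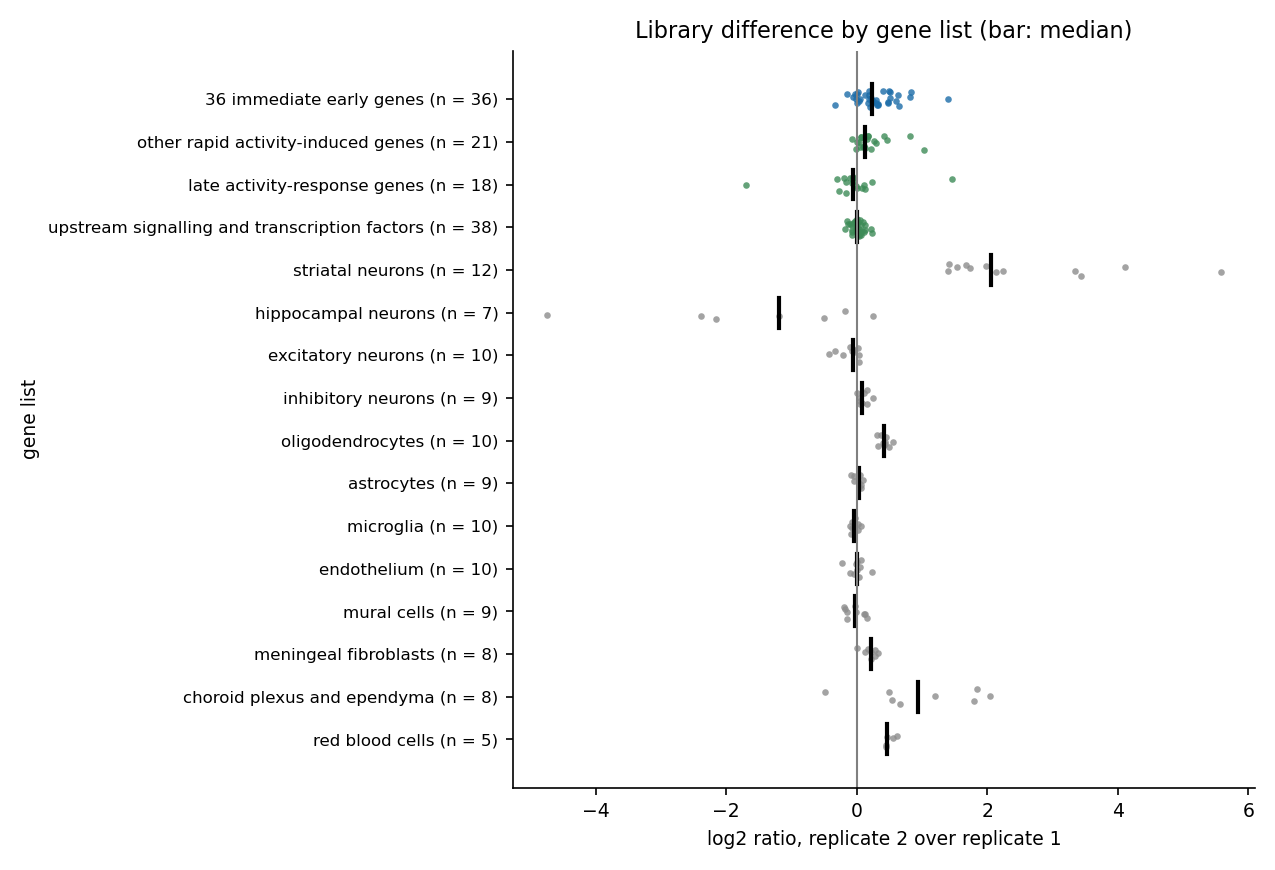
Log2 ratio of replicate 2 to replicate 1 for each gene (point) of the 36 immediate early genes (blue), the 3 other activity lists (green) and the 12 marker lists (grey), with the median as a bar. The immediate early genes have a median of 0.238, the late and upstream lists lie near 0, and the striatal markers have a median of 2.053.

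The deposited table on the older mm9 build gave a second quantification of the same libraries, with the columns not tied to replicates. By RPKM there, 26 members were higher in the second column and 10 lower, with a median log2 ratio of 0.117 against −0.106 over all rows. Egr2 had 0.285 and 0.696 RPKM and Jun 4.54 and 3.52, and the log2 ratio of Arc in RPKM was 0.70, the same signs as in TPM. The sign was that of the TPM ratio, replicate 2 to replicate 1, for 32 of 36. Fos was an exception, with 3.07 and 2.60 RPKM, although its junction reads in the same build were 315 and 509. Over the 31 members with at least 10 reads at junctions with the A flag, a flag whose meaning is not stated in the sources used here, 27 had more junction reads in the second column per total of 39026825 and 38323842, and 4 had fewer. The shares of all rows higher by RPKM, and of all genes higher by junction reads, are not given here. These counts of members therefore have no background.

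Transcript tables showed which forms carried the RNA. Among the 34 members above 1 TPM, 20 had a single transcript listed, and the leading transcript held over 90% in both libraries in 23. The same transcript led in both libraries in every one of the 34. In Nr4a3 the RNA was divided between transcripts of 5720 nt, at 53.0% and 52.1%, and 5068 nt, at 47.0% and 45.4%. In Plk3 the leading transcript of 2378 nt had 49.0% and 66.6% (57.8 ± 12.5, SD, n = 2), and a processed transcript of 2512 nt had 34.3% and 28.7%. Fos-201, the coding form, held 72.3% and 75.7%, with Fos-203 at 21.6% and 16.2%, and in Dusp1 a pair of retained-intron forms held 13.8% and 11.7% and 10.7% and 9.66%.

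Crem had 39 transcripts listed and no dominant one. Crem-218 led with 28.0% and 21.7%, followed by Crem-206 with 22.9% and 21.0%. Grouped by their 5′ ends, 7 transcripts that start 56.0 kb into the gene held 81.1% and 74.1% of its TPM, while the 11 that start at the gene's first 5′ ends held 11.0% and 12.2%. Crem is known for an internal promoter that makes the short ICER repressors, which CREB itself induces. Which of the listed transcripts encode ICER was not determined here. The number of transcripts makes each share uncertain.

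Arc RNA was divided between forms that differ by 3 nt. Arc-201 held 63.8% and 65.9% of TPM (64.8 ± 1.53, SD, n = 2) and Arc-202 the rest, and they differ in an intron of 245 nt in Arc-201 and 248 nt in Arc-202. Junction reads for the shorter intron were 541 of 866, or 62.5% (59.2 to 65.7, exact binomial interval), in the first mm9 column and 928 of 1436, or 64.6% (62.1 to 67.1), in the second. Of the shares in the transcript tables, 63.8% lies within both intervals and 65.9% within that of the second column. Both introns of Arc lie after the stop codon in the annotation, an arrangement that marks spliced Arc mRNA for decay once it is translated.

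Fosb was listed with a single transcript, so its tables could not show ΔFosB, the long-lived truncated form that accumulates with repeated activity. In the mm9 junction table, a junction without the A flag skipped 140 nt inside the last exon, from 19890356 to 19890495 on chromosome 7, with 4 reads in each column. The junction just upstream had 29 and 27 reads, so there were 14.3 reads across the 140 nt for every 100 upstream, from 8 reads in all. Fosb-206 and Fosb-207 of the 7 Fosb transcripts in GENCODE M21 have this intron. Taken from Fosb-201, the skipped sequence (lower case, 10 bases of exon on each side in capitals) lies on mm10 at chr7:19304997-19305156 on the minus strand.
Fosb alternative intron: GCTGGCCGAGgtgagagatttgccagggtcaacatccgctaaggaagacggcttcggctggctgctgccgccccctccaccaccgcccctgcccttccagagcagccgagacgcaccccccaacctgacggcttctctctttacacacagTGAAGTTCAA
It starts with GT and ends with AG. Its length leaves a remainder of 2 on division by 3, and removing it shortens the open reading frame computed from the transcript from 338 to 237 residues, the lengths of FosB and ΔFosB.

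**Figure D5:**
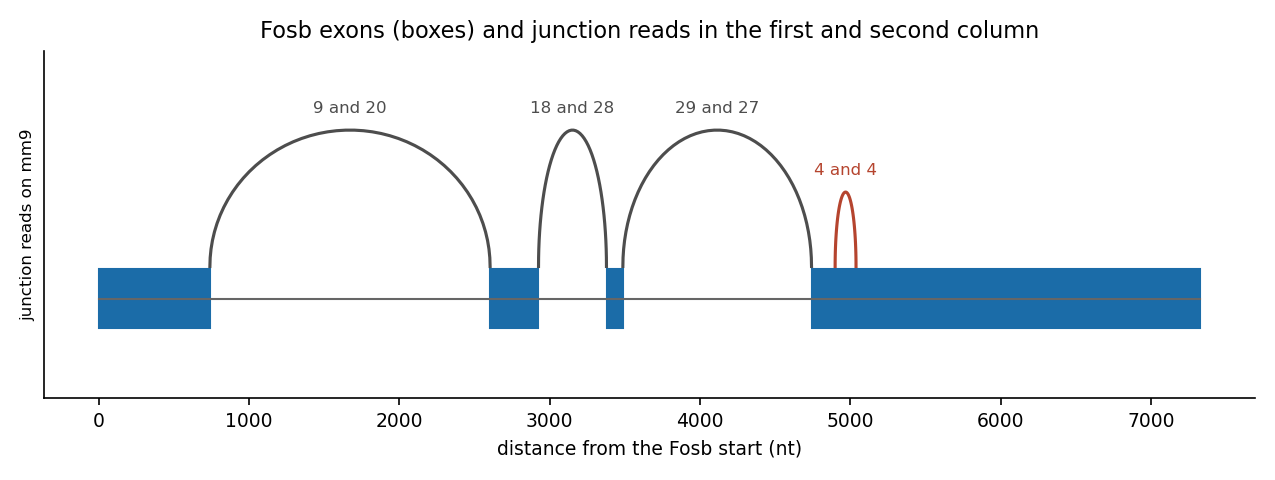
Exons of Fosb on mm9 (boxes) by distance from the gene's start in nt, with arcs for junctions of at least 5 reads and the reads in the first and second mm9 column. The 3 junctions between exons (dark arcs) have 9 and 20, 18 and 28, and 29 and 27 reads, and the red arc inside the last exon has 4 and 4.

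Junctions without the A flag also skipped exons in 3 other members. In Npas4 a junction without the A flag skipped an exon of 110 nt with 10 and 11 reads, against a mean of 62.5 and 88.5 at the exon's ends, which gives an inclusion of 86.2% and 88.9%. In Dusp6 an exon of 438 nt was skipped by 5 and 7 reads, for an inclusion of 98.7% and 98.6%. In Crem a junction with 9 and 6 reads passed over an exon of 36 nt. The junction into that exon from the same donor had 7 and 14 reads, and the junction out of it had 79 and 94. Junctions with the A flag from other donors also passed over it, among them those with 32 and 28, 22 and 20, and 3 and 12 reads. No inclusion is given for this exon. The junction with 9 and 6 reads also passed over a stretch of 377 nt. That stretch holds an intron of 139 nt with 11 and 27 reads, so it is not a single exon and no inclusion is given for it. Egr3 used several introns at its 5′ end, with 300 and 314 reads for the intron of 1297 nt, 74 and 71 for that of 819 nt, 39 and 48 for that of 425 nt, and 22 and 18 for an intron of 1020 nt without the A flag.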

How the data were processed

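Per the labels, polyadenylated RNA of adult mouse cortex was sequenced in 2 libraries, replicates 1 and 2 of one group. Per the file headers, the authors' mm10 tables list an expected count, a TPM and an FPKM value per gene and per transcript, the percent of a gene held by each isoform, and posterior means; the annotation was GENCODE M4. The deposited mm9 tables give RPKM with Ensembl 65 and junction read counts, in columns not tied to replicates. The programs are not given in the sources used here. The members and the gene lists were chosen with earlier results of these data known.

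Gene rows were named by unversioned identifier (98.0% of 43346 rows). Expected counts were rounded, and genes whose libraries summed to 10 counts or more were compared by an exact two-sided binomial test with TMM effective library sizes (edgeR 4.0.16, R 4.3.3) and Benjamini-Hochberg adjustment, and log2 ratios added 0.5 counts to each library. The binomial procedure was tested on simulated counts that held counting error only. They had no further variation between libraries, so this check does not cover such variation. Alternatives were DESeq2 1.42.0 size factors, plain totals, spike-in totals, TPM ratios, other count filters and an edgeR exact test with the common dispersion. Structure and coding parts came from GENCODE M21 on mm10, promoters from RefSeq on GRCm38.p6. Python 3.11.15, pandas 2.3.3, numpy 2.4.6, scipy 1.17.1, biopython 1.88 and matplotlib 3.10.9 were used. All members were named; those given with counts or intervals were the 10 most abundant, the 10 with the largest ratios and the 3 lowest, with others where a group turned on them; for each list of other genes, the 3 most abundant and the 2 with the largest ratios were named, and Bdnf was added after its values were seen.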

Additional observations from a re-analysis of the deposited data

How the results depend on the processing

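The limits are those of 2 libraries of one group: no ratio can be split into variation between animals, dissection and library, and a left-out library leaves a level but no ratio. No paired analysis was possible because the series has one group, so no groups share replicate numbers. The counts of 24 higher and 1 lower were as in the report with DESeq2 size factors and with count filters of 1, 50 and 100. With plain totals 23 members were higher. With spike-in totals 7 were lower and 3 passed 1.5-fold; the calls of Dusp5, Dusp6, Egr3, Fosl2, Klf10, Klf4, Nr4a3 and Rgs2 were lost, and Crem, Ier5, Jund, Nptx2, Plk2 and Ptgs2 became lower. By TPM ratio 3 passed 1.5-fold, and Klf4 reversed, to −0.18. For plain totals, spike-in totals and the TPM ratio, the shares of all genes beside these counts are not given here. The edgeR test with the common dispersion left 3 higher and 0 lower. The median log2 ratio was 0.231 with DESeq2 size factors, 0.204 with plain totals, 0.085 with spike-ins, 0.061 by TPM, 0.267 with at least 100 counts and 0.295 as a mean. The median of all genes was −0.15 with spike-ins and −0.155 by TPM, so the members' median lay above it in each. The median level, 3.53 as log2(TPM + 1), was 3.49 to 3.56 in a single library, 3.41 with a pseudocount of 0.1, 3.18 in FPKM and 1.31 in mm9 RPKM. A threshold of 10 TPM left 18 members. Left-out libraries gave 63.8% to 65.9% for Arc-201, 52.1% to 53.0% for the leading Nr4a3 transcript, 21.7% to 28.0% for Crem-218, and 49.0% to 66.6% for that of Plk3; the posterior mean gave 50.9% for that of Nr4a3. With the most abundant transcript as representative, the median coding length was 1128 nt and the ATTTA density 1.70 per kb. ATTTA was then in 28 members, or 77.8%, and ATTTATTTA in 4. The cause of these shifts was not tested. Depth limits Maff and Atf3, with at most 50 counts a library and intervals of 0.585 to 1.37 and 0.666 to 1.56.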

Other observations

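The older mm9 quantification treated several members differently from the mm10 tables. For Arc it put 78.9% and 79.2% of RPKM on Arc-202, the form with the longer intron, whereas the junction reads of the same build gave 62.5% and 64.6% to the shorter one. For Fos, the exons assigned to the coding form Fos-201 alone had 0.544 and 2.31 RPKM and those of the processed transcript Fos-203 had 2.44 and 0.280, while each of the 3 most used Fos junctions had more reads in the second column, 122 and 210, 108 and 168, and 77 and 102. In Jund, which has 1 exon, a junction of 59 nt with neither flag set had 11 and 20 reads.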
